A study of Rattus norvegicus with 15 samples.

Results

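Cytokines are secreted or membrane-bound signalling proteins between cells, chemokines are the cytokines that direct cell migration, and both act through receptors on the surface of target cells. The members described here are all probes with exactly 1 gene symbol in the platform annotation that starts with Il and a digit, or with Ccl, Cxcl, Cx3c, Ccr, Cxcr, Xcl, Tnf, Ifn, Csf, Lif or Osm. They numbered 68 of 3757 probes, 1 for each of 68 genes (of 3400 genes named by a probe of their own). The rule reads symbols and no measured value, but it was set with earlier results of these data known. By symbol, 37 are ligands, 28 are receptors, 2 are antagonists (Il1rn and Il18bp) and 1, Tnfaip6, is a secreted protein induced by TNF that is neither. No member has the symbol of oncostatin M, its receptor or Csf1. A further probe lists both Lta and Tnf and was left out by the rule.

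RNA was measured in liver tissue from male Fischer344 rats (named only as Fischer for 1 control sample) on 15 arrays. The 5 control livers belonged to animals that ate a basal diet. A further 10 samples were taken from rats fed a diet deficient in choline and defined in its L-amino acids, 5 of them hepatocellular carcinomas and 5 the noncancerous, cirrhotic tissue around such tumours. All rats had been on their diet for 70 weeks. Whether each sample is its own animal, and whether a tumour and a cirrhotic sample of the same number come from one rat, is not in the labels, and the p-values reflect sample-to-sample spread, which may be technical. Each sample is a piece of tissue holding many cell types, in which fewer cells of a type and less RNA per cell cannot be told apart.

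In liver, resident macrophages and infiltrating leukocytes are known sources of interleukin-1, TNF and chemokines, and hepatocytes answer interleukin-1 and interleukin-6 with acute phase proteins. Chemokine ligands and receptors sort leukocytes: CXC ligands such as Cxcl2 and Cxcl3 attract neutrophils, and Ccl2 attracts monocytes. Many of these systems carry their own brakes, such as receptor antagonists and decoy receptors that bind a ligand without signalling.

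Each value is the log2 of the deposited ratio after quantile normalization, called the log2 ratio here; the deposited ratio of a probe has a median of 1 across the arrays. A log2 ratio of 0 is therefore close to the probe's middle sample, and neither the level of one gene against another nor the presence of a transcript can be read from it. Differences are between group means on that log2 scale. The deposited ratios do not go below 0.01, a limit that 13 member values reached, 8 of them in control 1. They belonged to Il13, Il10, Tnfrsf1a, Il6st, Il18, Ccr1 and Ifngr1 in control 1, Ccl20 in controls 1 and 2, Il12a and Cxcl12 in control 3, and Il1a and Il15 in cirrhotic sample 1. Normalization gave all values at the limit in an array the same log2 ratio. It was -2.39 in control 1, -3.36 in control 2, -3.19 in control 3 and -2.46 in cirrhotic sample 1. A value at the limit can therefore lie above a higher deposited ratio of another array. Sample values also drifted along the numbering of the probes, each sample in its own way. The running median of neighbouring probes was therefore subtracted as an alternative, called the numbering correction here, and its value is given beside each printed difference and list median that it moved by more than 1.5 times or turned in sign.

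No member passed an adjusted p of 0.05 in any comparison, and neither did any other probe (0% of 3757 in each). The smallest limma adjusted p among members was 0.307 between cirrhotic and control liver, 0.489 between carcinoma and control and 0.224 between carcinoma and cirrhotic liver. At an unadjusted p under 0.05 there were 8 of 68 members between cirrhotic and control liver (11.8%, against 9.64% of all probes), 7 of them lower in cirrhotic liver (10.3% against 5.62%) and 1 higher (1.47% against 4.02%). The corresponding count was 9 between carcinoma and control (13.2% against 7.4%) and 12 between carcinoma and cirrhotic liver (17.6% against 13.2%). In carcinoma 6 of the 9 were lower than in control liver (8.82% against 3.75%) and 3 higher (4.41% against 3.65%), and 8 of the 12 were lower than in cirrhotic liver (11.8% against 6.28%) and 4 higher (5.88% against 6.95%). The 7 lower in cirrhotic than in control liver are all numbered from 2000 on, where 24.7% of all probes were higher. The 1 higher is numbered below 2000, where 76.6% were. The 8 lower in carcinoma than in cirrhotic liver are all numbered below 2000, where 29.9% of all probes were higher. The 4 higher are all numbered from 2000 on, where 68.7% were. Complete separation, in which all 5 values of a group lie beyond all 5 of the other, was seen for 2 members between cirrhotic and control liver (2.94% against 1.65% of all probes). It was seen for 1 between carcinoma and control (1.47% against 1.89%) and for 2 between carcinoma and cirrhotic liver (2.94% against 2.71%). By direction these were Csf3 higher and Xcl1 lower in cirrhotic than in control liver (0.665% and 0.985% of all probes), Il1rn lower in carcinoma than in control liver (0.825%, and 0 higher against 1.06%), and Il5 higher and Il2rb lower in carcinoma than in cirrhotic liver (1.25% and 1.46%). The shares of members separated lay near those of the whole array. With the numbering correction the unadjusted counts were 3 (4.41% against 4.02%), 9 (13.2% against 8.49%) and 10 (14.7% against 9.82%), and separation was seen for 0 (against 0.452%), 2 (Il2rb and Tnfaip6, 2.94% against 2.02%) and 0 members (against 1.36%), in the same order of comparisons.

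**Figure D1:**
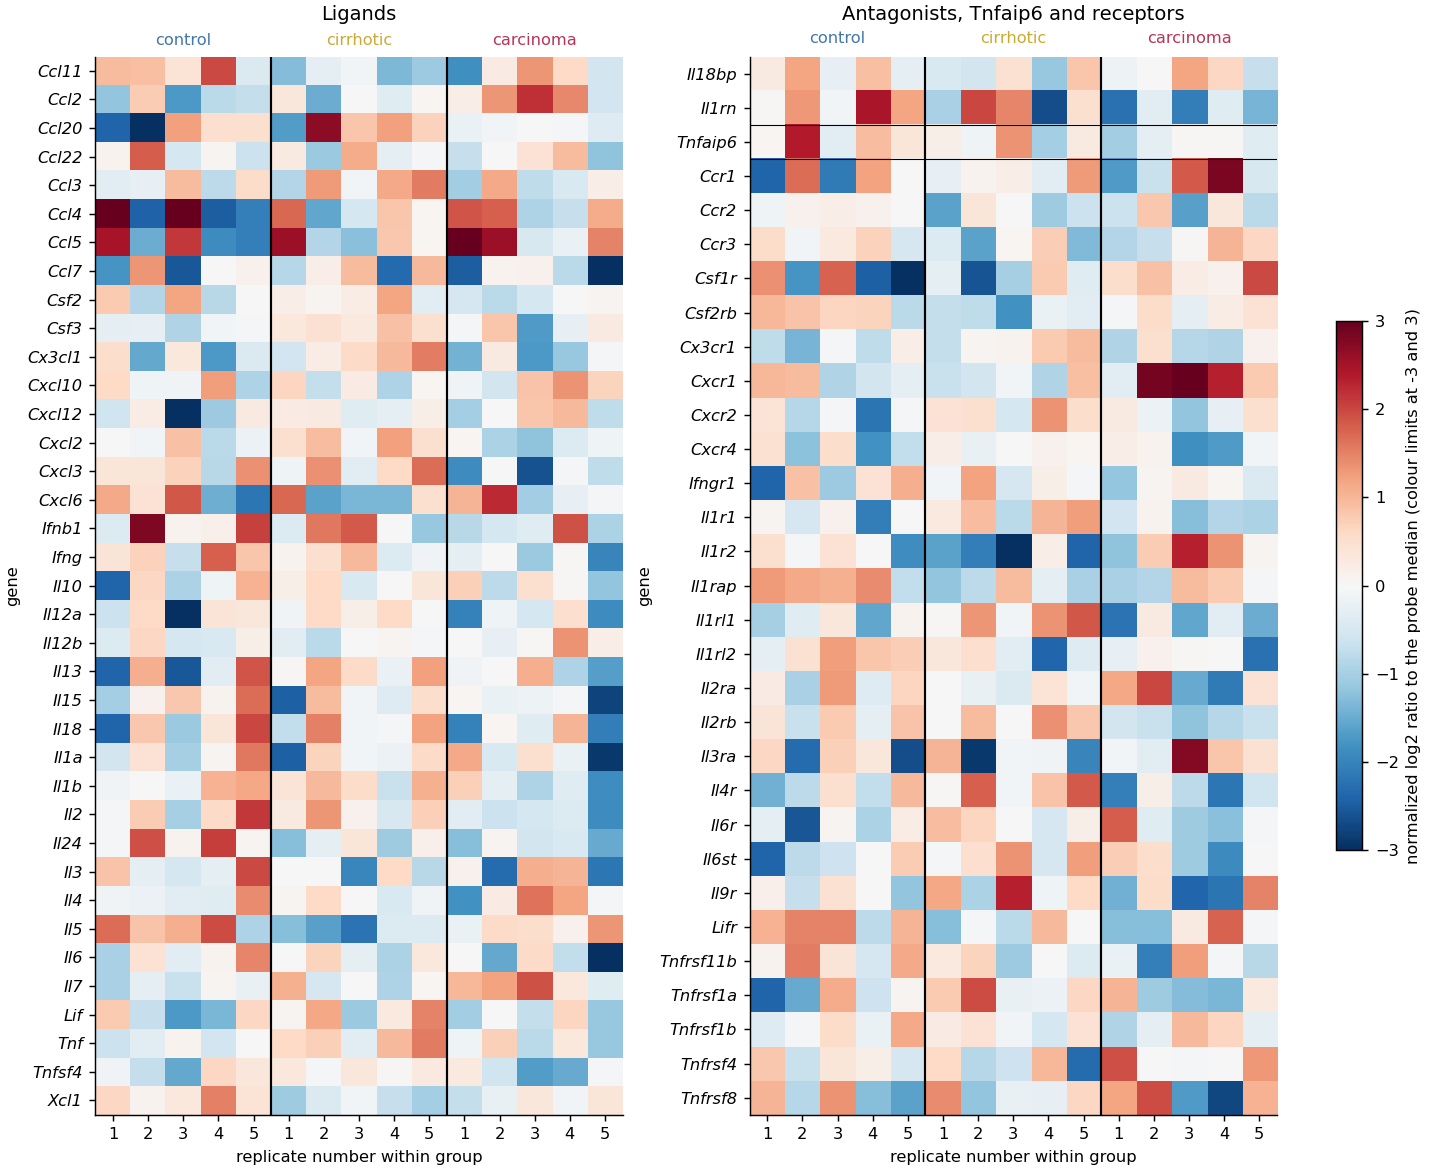
Normalized log2 ratio of each of the 68 members (rows) in each of the 15 samples (columns, by group and replicate number), with ligands on the left and antagonists, Tnfaip6 and receptors on the right. Within a group single samples often differ by more than the groups do; Cxcr1 stands out in carcinomas 2, 3 and 4, with 2.86, 3.17 and 2.33, and Il5 is below 0 in all 5 cirrhotic samples.

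Ligands and receptors were first compared as groups. Between carcinoma and cirrhotic liver the 37 ligands had a median difference of -0.52, with 26 below 0, and the 28 receptors had a median of -0.10, with 16 below 0. Over all probes the median was -0.02, and 50.7% lay below 0. Between carcinoma and control liver the medians were -0.31 for ligands (22 below 0) and -0.13 for receptors (16 below 0), against 0.0029 over all probes (49.9% below 0). Between cirrhotic and control liver both lay above 0, at 0.25 for ligands (21 above 0) and 0.32 for receptors (15 above 0), against 0.015 over all probes (49.3% below 0). With the numbering correction the ligand medians were 0.03, -0.19 and -0.33 and the receptor medians 0.13, -0.14 and -0.16, for cirrhotic against control, carcinoma against control and carcinoma against cirrhotic liver in turn. Between cirrhotic and control liver the receptor median was -0.04 with the values at the lower limit set to missing. Single arrays moved these medians. Leaving out 1 at a time, the ligand median ran from -0.02 (without control 1) to 0.28 for cirrhotic against control, from -0.40 to -0.12 (without control 5) for carcinoma against control and from -0.67 to -0.32 (without carcinoma 5) for carcinoma against cirrhotic liver. The receptor median ran from 0.07 (without control 5) to 0.40, from -0.22 to 0.05 (without carcinoma 3) and from -0.29 (without carcinoma 4) to -0.0059 (without cirrhotic sample 5). The highest group mean was in cirrhotic liver for 17 ligands and 13 receptors, in control liver for 12 and 9 and in carcinoma for 8 and 6. That count was not made over all probes, nor with the numbering correction. Below probe number 2000, 76.6% of all probes were higher in cirrhotic than in control liver. There 29.9% were higher in carcinoma than in cirrhotic liver. The ligand and receptor medians describe the members chosen here and were not tested.

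Within each sample, the median log2 ratio of the ligands ran from -0.33 to 0.34 in control liver, from -0.17 to 0.46 in cirrhotic liver and from -0.76 to -0.02 in carcinoma. That of the receptors ran from -0.58 to 0.45 in control liver, from -0.09 to 0.12 in cirrhotic liver and from -0.53 to 0.11 in carcinoma. The groups overlapped for both roles. The ligand median minus the receptor median was 0.08 ± 0.62 in control liver, 0.09 ± 0.21 in cirrhotic liver and -0.10 ± 0.40 in carcinoma (mean ± SD, n = 5 each), so it differed between groups by less than its spread between samples. Over 20 matched pairs of a ligand and its receptor, both differences lay on the same side of 0 in 14 pairs between carcinoma and cirrhotic liver, in 9 between carcinoma and control and in 10 between cirrhotic and control liver. In these comparisons, in the same order, the ligand lay below 0 in 16, 12 and 8 of the 20 pairs. The receptor did so in 12, 11 and 6. The number of same-side pairs to be expected without matching was not computed, and the count was not repeated with the numbering correction. Some pairs share a gene, and the 3 comparisons share samples.

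**Figure D2:**
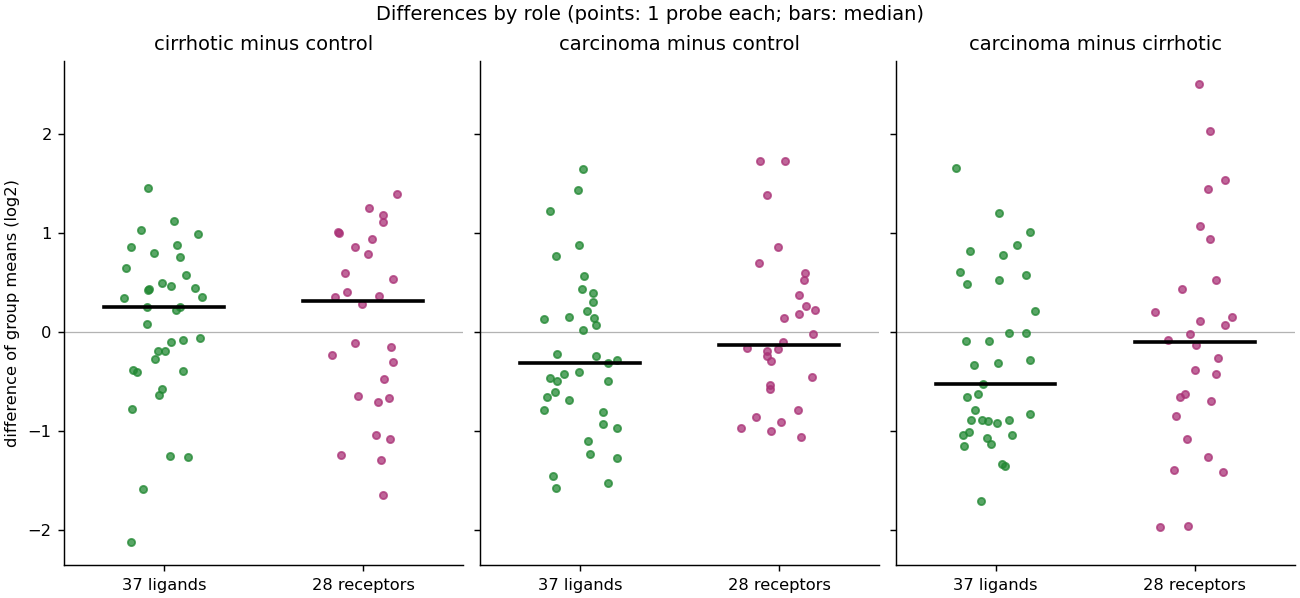
Difference of group means (log2) for each ligand and each receptor probe in the 3 comparisons; a point is 1 probe and the bar is the median. Both roles spread on either side of 0, and the ligand median lies lowest between carcinoma and cirrhotic liver, at -0.52.

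The interleukin-1 family was measured with both main ligands, the antagonist and 5 receptors. Il1rn encodes the interleukin-1 receptor antagonist, which occupies the signalling receptor without activating it. The samples gave log2 ratios of 0.04, 1.29, -0.07, 2.46 and 1.19 in controls 1 to 5, -0.97, 2.0, 1.46, -2.66 and 0.49 in cirrhotic samples 1 to 5 and -2.25, -0.32, -2.07, -0.36 and -1.40 in carcinomas 1 to 5. All 5 carcinomas lay below all 5 controls, while the cirrhotic samples spanned both. The carcinoma mean differed from the control mean by -2.26 (95% interval -3.77 to -0.75, limma adjusted p = 0.489), the largest difference below 0 of any member in that comparison. The numbering correction gave -2.05 and ended the separation.

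The ligands that Il1rn opposes, Il1a and Il1b, showed no separation. For Il1b the log2 ratios were -0.11, 0.02, -0.20, 1.04 and 1.16 in control liver, 0.40, 0.98, 0.55, -0.67 and 1.06 in cirrhotic liver and 0.71, -0.28, -0.93, -0.37 and -1.86 in carcinoma, with 4 of 5 carcinomas below 0. Against control liver, carcinoma differed by -0.93 (95% interval -2.01 to 0.16, limma adjusted p = 0.715), and carcinoma differed from cirrhotic liver by -1.01 (95% interval -2.09 to 0.07, limma adjusted p = 0.405), the latter -0.64 with the numbering correction. Without carcinoma 5 these were -0.59 and -0.66. For Il1a the log2 ratios were -0.55, 0.44, -0.99, 0.07 and 1.58 in control liver, -2.46, 0.67, -0.09, -0.17 and 0.58 in cirrhotic liver and 1.15, -0.45, 0.49, -0.19 and -2.90 in carcinoma, with the lowest values in carcinoma 5 and cirrhotic sample 1. The carcinoma mean was -0.38 ± 1.54 (SD, n = 5), and the difference from control liver was -0.49 (95% interval -1.99 to 1.0, limma adjusted p = 0.882), or 0.14 without carcinoma 5 and -0.12 without control 5. Its difference between carcinoma and cirrhotic liver, -0.09, had the opposite sign with the numbering correction (0.28) and on the values as deposited (0.94). In deposited ratios cirrhotic sample 1, at the limit of 0.01, lay below carcinoma 5, at 0.17.

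Among the receptors, Il1r1 transmits the interleukin-1 signal and Il1rl1 is the receptor of interleukin-33. Both had their highest mean in cirrhotic liver and their lowest in carcinoma. The log2 ratios of Il1rl1 were -0.99, -0.36, 0.35, -1.56 and 0.11 in control liver, 0.05, 1.33, -0.09, 1.35 and 1.86 in cirrhotic liver and -2.20, 0.28, -1.56, -0.33 and -1.5 in carcinoma. Carcinomas 1, 3, 4 and 5 lay below every cirrhotic sample, and carcinoma 2 overlapped them. Relative to cirrhotic liver, carcinoma differed by -1.96 (95% interval -3.20 to -0.73, limma adjusted p = 0.224), and cirrhotic differed from control liver by 1.39 (95% interval 0.16 to 2.62, limma adjusted p = 0.466), the latter 0.92 with the numbering correction. For Il1r1 the log2 ratios were 0.08, -0.50, 0.14, -2.08 and 0.02 in control liver, 0.30, 0.93, -0.80, 1.01 and 1.26 in cirrhotic liver and -0.57, 0.10, -1.28, -0.87 and -0.94 in carcinoma, where 4 of 5 values were below 0. Carcinoma minus cirrhotic was -1.26 (95% interval -2.42 to -0.09, limma adjusted p = 0.345).

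Il1r2 is the decoy receptor of the family, which binds interleukin-1 and does not signal, and its order of group means was the opposite. Its log2 ratios were 0.48, -0.03, 0.44, -0.0020 and -1.86 in control liver, -1.60, -2.07, -3.36, 0.21 and -2.40 in cirrhotic liver and -1.21, 0.75, 2.34, 1.34 and 0.09 in carcinoma. Cirrhotic sample 4, at 0.21, was the 1 cirrhotic value above 0, and carcinoma 1 the 1 carcinoma below 0. Against cirrhotic liver, carcinoma differed by 2.5 (95% interval 0.89 to 4.12, limma adjusted p = 0.234), the largest difference above 0 of any member in any comparison, and cirrhotic minus control was -1.65 (95% interval -3.26 to -0.04, limma adjusted p = 0.51). The numbering correction gave 1.80 and -0.97 for these, and without cirrhotic sample 4 carcinoma minus cirrhotic was 3.06.

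Il1rap is the shared partner chain of Il1r1 and Il1rl1. The samples gave log2 ratios of 1.28, 1.13, 1.07, 1.41 and -0.74 in control liver, -1.18, -0.79, 0.94, -0.29 and -0.98 in cirrhotic liver and -0.97, -0.87, 0.95, 0.77 and -0.03 in carcinoma. In control liver 4 of 5 values exceeded 1, and control 5 lay among the cirrhotic samples. The cirrhotic mean differed from the control mean by -1.29 (95% interval -2.44 to -0.14, limma adjusted p = 0.472), or -0.84 with the numbering correction. For Il1rl2, a receptor of interleukin-36, the differences were -1.04 between cirrhotic and control liver, -1.06 between carcinoma and control and -0.02 between carcinoma and cirrhotic liver, the last -0.20 with the numbering correction.

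**Figure D3:**
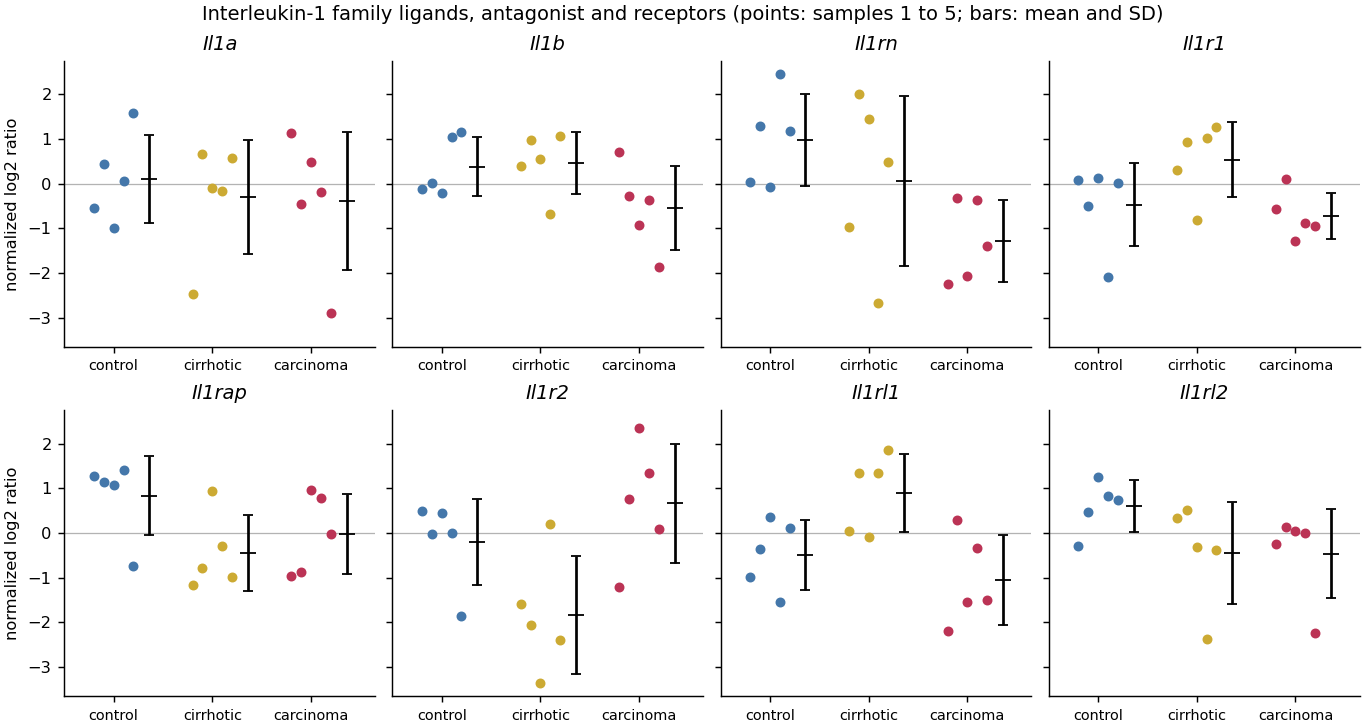
Log2 ratios of the 8 interleukin-1 family members in the 5 samples of each group (points, in order of replicate number), with the mean and SD beside them. Il1rn is below all controls in all 5 carcinomas, Il1r1 and Il1rl1 have their highest mean in cirrhotic liver, and Il1r2 has its lowest there, at -1.84.

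The genes of Il1r2, Il1r1, Il1rl2 and Il1rl1 neighbour each other on chromosome 9 of the rat. Of the 4 differences, 2 lay below 0 between cirrhotic and control liver, 3 between carcinoma and control and 3 between carcinoma and cirrhotic liver, so neighbours did not share 1 direction. Some of the described genes with differences below 0 in carcinoma were picked as examples, by no set rule. Shown are the 250 bases before the annotated start of Il1rn, Il1r1, Il1rl1 and the chemokine gene Cxcl2. They come from RefSeq on the assembly GRCr8, are written 5′ to 3′ in the direction of the gene, and capitals mark matches to the TATA box (TATAAA) or the kappaB site, the motif bound by NF-kappaB, on either strand.
Il1rn, chr3:27520072-27520321, plus strand: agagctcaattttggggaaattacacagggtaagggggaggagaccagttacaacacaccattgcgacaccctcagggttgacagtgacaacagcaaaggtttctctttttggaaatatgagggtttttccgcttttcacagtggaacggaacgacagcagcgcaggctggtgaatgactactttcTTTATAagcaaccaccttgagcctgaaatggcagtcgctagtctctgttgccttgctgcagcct
Il1r1, chr9:50034133-50034382, plus strand: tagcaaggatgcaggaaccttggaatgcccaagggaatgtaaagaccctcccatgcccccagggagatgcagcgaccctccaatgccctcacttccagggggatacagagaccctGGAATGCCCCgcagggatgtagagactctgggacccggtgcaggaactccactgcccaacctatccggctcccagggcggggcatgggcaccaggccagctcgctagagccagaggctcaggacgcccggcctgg
Il1rl1, chr9:50203388-50203637, plus strand: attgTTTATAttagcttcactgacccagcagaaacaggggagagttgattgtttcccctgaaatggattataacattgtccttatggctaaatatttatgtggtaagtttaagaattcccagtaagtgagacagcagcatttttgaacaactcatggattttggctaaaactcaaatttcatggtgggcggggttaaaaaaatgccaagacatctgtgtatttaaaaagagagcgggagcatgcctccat
Cxcl2, chr14:17467256-17467505, minus strand: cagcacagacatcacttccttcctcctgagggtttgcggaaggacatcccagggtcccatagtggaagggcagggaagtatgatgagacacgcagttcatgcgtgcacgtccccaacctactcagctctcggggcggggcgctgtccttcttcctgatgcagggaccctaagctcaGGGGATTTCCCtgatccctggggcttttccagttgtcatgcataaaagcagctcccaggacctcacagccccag

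A kappaB match stood in the sequences of Il1r1, starting 135 bases before the start site, and of Cxcl2, where matches starting 74 and 73 bases before it overlapped. Il1rn and Il1rl1 each held 1 match to the TATA box, 64 and 246 bases before the start site. Il4r, which also had a difference below 0 in carcinoma and is not shown, held no match to either motif. Of the 68 members, 51 had an entry (1 of them with more than 1 start, of which the first was read). A kappaB match was present in 11 of 51 (21.6%), against 6.33% of 33469 sequences of the same length in the table, and a TATA box match in 14 (27.5% against 12.9%). The AP-1 site (TGANTCA) was present in 8 (15.7% against 6.34%) and the GAS element (TTCNNNGAA), a STAT-binding motif, in 2 (3.92% against 7.67%). A match describes letters in this window and not binding.

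Of the 15 chemokine ligands, Ccl2 had the largest difference above 0 in the tumour. Ccl2, also called MCP-1, attracts monocytes through Ccr2. Its log2 ratios were -1.17, 0.76, -1.72, -0.81 and -0.72 in control liver, 0.35, -1.49, -0.02, -0.36 and 0.07 in cirrhotic liver and 0.19, 1.34, 2.20, 1.43 and -0.58 in carcinoma. Carcinomas 2, 3 and 4 lay above every control and cirrhotic sample, and carcinomas 1 and 5 lay among them. Carcinoma minus control was 1.65 (95% interval 0.46 to 2.84, limma adjusted p = 0.564) and carcinoma minus cirrhotic 1.21 (95% interval 0.02 to 2.39, limma adjusted p = 0.372). Its receptor Ccr2 differed by -0.46 and 0.21 in the same comparisons, and by -0.27 and -0.42 with the numbering correction.

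Cxcl2 and Cxcl3, ligands that attract neutrophils through Cxcr2, were both lowest in the tumour by their means. For Cxcl3 the log2 ratios were 0.36, 0.37, 0.68, -0.84 and 1.36 in control liver, -0.12, 1.36, -0.31, 0.59 and 1.67 in cirrhotic liver and -1.88, -0.02, -2.62, -0.06 and -0.76 in carcinoma. No carcinoma exceeded 0, and carcinomas 1 and 3 lay below every other sample. The carcinoma mean differed from the control mean by -1.46 (95% interval -2.66 to -0.25, limma adjusted p = 0.575), and carcinoma differed from cirrhotic liver by -1.71 (95% interval -2.91 to -0.50, limma adjusted p = 0.243). For Cxcl2 the log2 ratios were 0.01, -0.09, 0.88, -0.81 and -0.18 in control liver, 0.48, 0.94, -0.09, 1.22 and 0.48 in cirrhotic liver and 0.06, -0.96, -1.21, -0.40 and -0.14 in carcinoma. Carcinoma minus cirrhotic was -1.13 (95% interval -2.09 to -0.18, limma adjusted p = 0.305). Carcinoma 1, at 0.06, overlapped the lowest cirrhotic value of -0.09, and the other 4 carcinomas lay below it.

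Cxcl6, another gene of the same cluster on chromosome 14, differed by 0.82 between carcinoma and cirrhotic liver. Cxcr1 is a receptor of neutrophil-attracting CXC chemokines, and its log2 ratios were 0.99, 0.96, -0.91, -0.54 and -0.30 in control liver, -0.66, -0.56, -0.09, -0.89 and 0.89 in cirrhotic liver and -0.31, 2.86, 3.17, 2.33 and 0.78 in carcinoma. Carcinomas 2, 3 and 4 exceeded every other sample, and carcinoma 1 did not exceed 0. Against control liver, carcinoma differed by 1.73 (95% interval 0.17 to 3.28, limma adjusted p = 0.645), and carcinoma differed from cirrhotic liver by 2.03 (95% interval 0.48 to 3.58, limma adjusted p = 0.262). Its neighbour Cxcr2 differed by 0.38 and -0.62, the latter -0.14 with the numbering correction.

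Cx3cl1, a membrane-anchored chemokine whose receptor is Cx3cr1, had its highest mean in cirrhotic liver. The log2 ratios were 0.52, -1.54, 0.33, -1.72 and -0.43 in control liver, -0.57, 0.23, 0.57, 0.98 and 1.54 in cirrhotic liver and -1.41, 0.26, -1.73, -1.14 and -0.03 in carcinoma, and the ranges of all 3 groups overlapped. Relative to cirrhotic liver, carcinoma differed by -1.36 (95% interval -2.63 to -0.08, limma adjusted p = 0.354), or -0.82 with the numbering correction, and Cx3cr1 differed by -0.65, or -0.16 with it. Ccl11, or eotaxin, attracts eosinophils, and Xcl1, or lymphotactin, attracts dendritic cells and lymphocytes. Both were lowest in cirrhotic liver.

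For Xcl1 the log2 ratios were 0.61, 0.11, 0.32, 1.5 and 0.42 in control liver, -1.07, -0.42, -0.09, -0.70 and -1.02 in cirrhotic liver and -0.71, -0.21, 0.34, -0.08 and 0.37 in carcinoma. All 5 controls were above 0 and all 5 cirrhotic samples below 0, so these groups separated completely. Cirrhotic minus control was -1.25 (95% interval -2.18 to -0.33, limma adjusted p = 0.391), and with the numbering correction it was -0.89 and the separation was lost. For Ccl11 the log2 ratios were 0.96, 0.90, 0.42, 1.98 and -0.43 in control liver, -1.31, -0.28, -0.09, -1.36 and -1.08 in cirrhotic liver and -1.84, 0.24, 1.33, 0.60 and -0.55 in carcinoma, with control 5 among the cirrhotic values. The cirrhotic mean differed from the control mean by -1.59 (95% interval -2.78 to -0.40, limma adjusted p = 0.399).

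Among cytokines of lymphocytes, Il5, which supports eosinophils, had the largest difference below 0 of any member between cirrhotic and control liver. The samples gave log2 ratios of 1.68, 0.87, 1.09, 1.95 and -0.93 in control liver, -1.28, -1.63, -2.22, -0.40 and -0.41 in cirrhotic liver and -0.20, 0.57, 0.53, 0.14 and 1.32 in carcinoma. Every carcinoma lay above every cirrhotic sample, and 4 of 5 controls did too, with control 5 at -0.93. Cirrhotic minus control was -2.12 (95% interval -3.25 to -0.98, limma adjusted p = 0.307) and carcinoma minus cirrhotic 1.66 (95% interval 0.52 to 2.80, limma adjusted p = 0.234). The numbering correction gave -1.32 and 1.35 and ended the separation. Its cluster neighbours on chromosome 10, Il4, Il13, Csf2 and Il3, differed by -0.06, 1.03, 0.22 and -0.78 between cirrhotic and control liver. The numbering correction gave 0.68, 0.58, -0.16 and -0.46, so the signs of Il4 and Csf2 turned.

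Csf2rb, the shared signalling chain of the receptors for Il3, Il5 and Csf2, followed the same order of means as Il5. Its log2 ratios were 0.99, 0.86, 0.65, 0.66 and -0.80 in control liver, -0.72, -0.77, -1.81, -0.19 and -0.33 in cirrhotic liver and -0.03, 0.54, -0.29, 0.22 and 0.44 in carcinoma, again with control 5 low. The cirrhotic mean differed from the control mean by -1.24 (95% interval -2.22 to -0.25, limma adjusted p = 0.413), and -0.37 with the numbering correction. The probes of Csf2rb and Il5, numbers 3385 and 3431, lie in a stretch where neighbouring probes were also lower in cirrhotic liver.

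Il2, the growth factor of T cells, and Il2rb, a chain of its receptor, were both lowest in the tumour. Il2rb had log2 ratios of 0.39, -0.66, 0.79, -0.30 and 0.86 in control liver, -0.01, 0.94, -0.01, 1.36 and 0.81 in cirrhotic liver and -0.54, -0.66, -1.20, -0.86 and -0.68 in carcinoma. All 5 carcinomas lay below all 5 cirrhotic samples, and only control 2 reached into the range of the carcinomas. Carcinoma minus cirrhotic was -1.41 (95% interval -2.36 to -0.46, limma adjusted p = 0.234) and carcinoma minus control -1.0 (95% interval -1.96 to -0.05, limma adjusted p = 0.656). With the numbering correction these were -1.06 and -1.05, and the separation was then from control and no longer from cirrhotic liver. The carcinoma values of Il2rb had an SD of 0.26, against 0.67 in control and 0.61 in cirrhotic liver.

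For Il2 the log2 ratios were -0.06, 0.75, -1.0, 0.56 and 2.12 in control liver, 0.26, 1.34, 0.13, -0.48 and 0.72 in cirrhotic liver and -0.33, -0.65, -0.52, -0.40 and -1.89 in carcinoma. All 5 carcinomas were below 0, but control 3, at -1.0, was lower than 4 of them. Carcinoma minus control was -1.23 (95% interval -2.36 to -0.10, limma adjusted p = 0.649), or -0.82 without control 5, and carcinoma minus cirrhotic -1.15 (95% interval -2.28 to -0.02, limma adjusted p = 0.372), or -0.74 with the numbering correction. Il2ra, the high-affinity chain of that receptor, differed by -0.16 and 0.07, the latter 0.44 with the numbering correction.

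Ifng, interferon-gamma of T and NK cells, had log2 ratios of 0.38, 0.69, -0.70, 1.79 and 0.82 in control liver, 0.11, 0.48, 0.98, -0.40 and -0.09 in cirrhotic liver and -0.28, -0.02, -1.12, 0.03 and -1.99 in carcinoma. Carcinomas 3 and 5 were below every other sample, and the rest overlapped the other groups. The carcinoma mean differed from the control mean by -1.27 (95% interval -2.36 to -0.19, limma adjusted p = 0.598), beside -0.02 for Ifngr1, a chain of its receptor (-0.36 with the numbering correction). Markers of T and NK cells were 8 of 15 listed, and their mean log2 ratio per sample ranged from -0.80 to 0.11 in control liver, from -0.67 to 0.79 in cirrhotic liver and from -0.72 to 0.03 in carcinoma. At an unadjusted p under 0.05, 1 of the 8 was lower in carcinoma than in cirrhotic liver (against 6.28% of all probes). Between carcinoma and control 0 differed (against 7.4%). The part of cell content in the values of Il2, Il2rb and Ifng was not tested.

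Il4r, a receptor chain for interleukins 4 and 13, showed the same order of means as Il1rl1. The samples gave log2 ratios of -1.44, -0.78, 0.49, -0.75 and 0.98 in control liver, 0.03, 1.79, -0.09, 0.85 and 1.84 in cirrhotic liver and -2.05, 0.17, -0.78, -2.16 and -0.60 in carcinoma. Carcinoma 2 overlapped the cirrhotic samples, and carcinomas 1, 3, 4 and 5 lay below them. Against cirrhotic liver, carcinoma differed by -1.97 (95% interval -3.23 to -0.70, limma adjusted p = 0.234), the largest difference below 0 of any member in that comparison, while its ligands Il4 and Il13 differed by 0.22 and -0.89, the former -0.30 with the numbering correction.

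Il7, which supports lymphocyte survival, had its highest mean in the tumour, as did 8 of the 37 ligands in all. Its log2 ratios were -0.97, -0.29, -0.66, 0.09 and -0.22 in control liver, 1.06, -0.51, -0.01, -0.92 and 0.07 in cirrhotic liver and 0.99, 1.21, 1.90, 0.31 and -0.35 in carcinoma. Carcinoma 5 lay among the controls, and the other carcinomas lay above all 5. Against control liver, carcinoma differed by 1.22 (95% interval 0.18 to 2.26, limma adjusted p = 0.598). Il24, a cytokine of the interleukin-10 family, had its highest mean in control liver, with log2 ratios of -0.03, 1.94, 0.11, 2.08 and 0.08 there, -1.28, -0.28, 0.37, -1.07 and 0.14 in cirrhotic liver and -1.27, 0.08, -0.54, -0.45 and -1.51 in carcinoma. Controls 2 and 4 stood above every other sample, and the other 3 controls lay between -0.03 and 0.11. Carcinoma minus control was -1.58 (95% interval -2.73 to -0.42, limma adjusted p = 0.564) and cirrhotic minus control -1.26 (95% interval -2.41 to -0.11, limma adjusted p = 0.48), the latter -0.36 with the numbering correction.

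**Figure D4:**
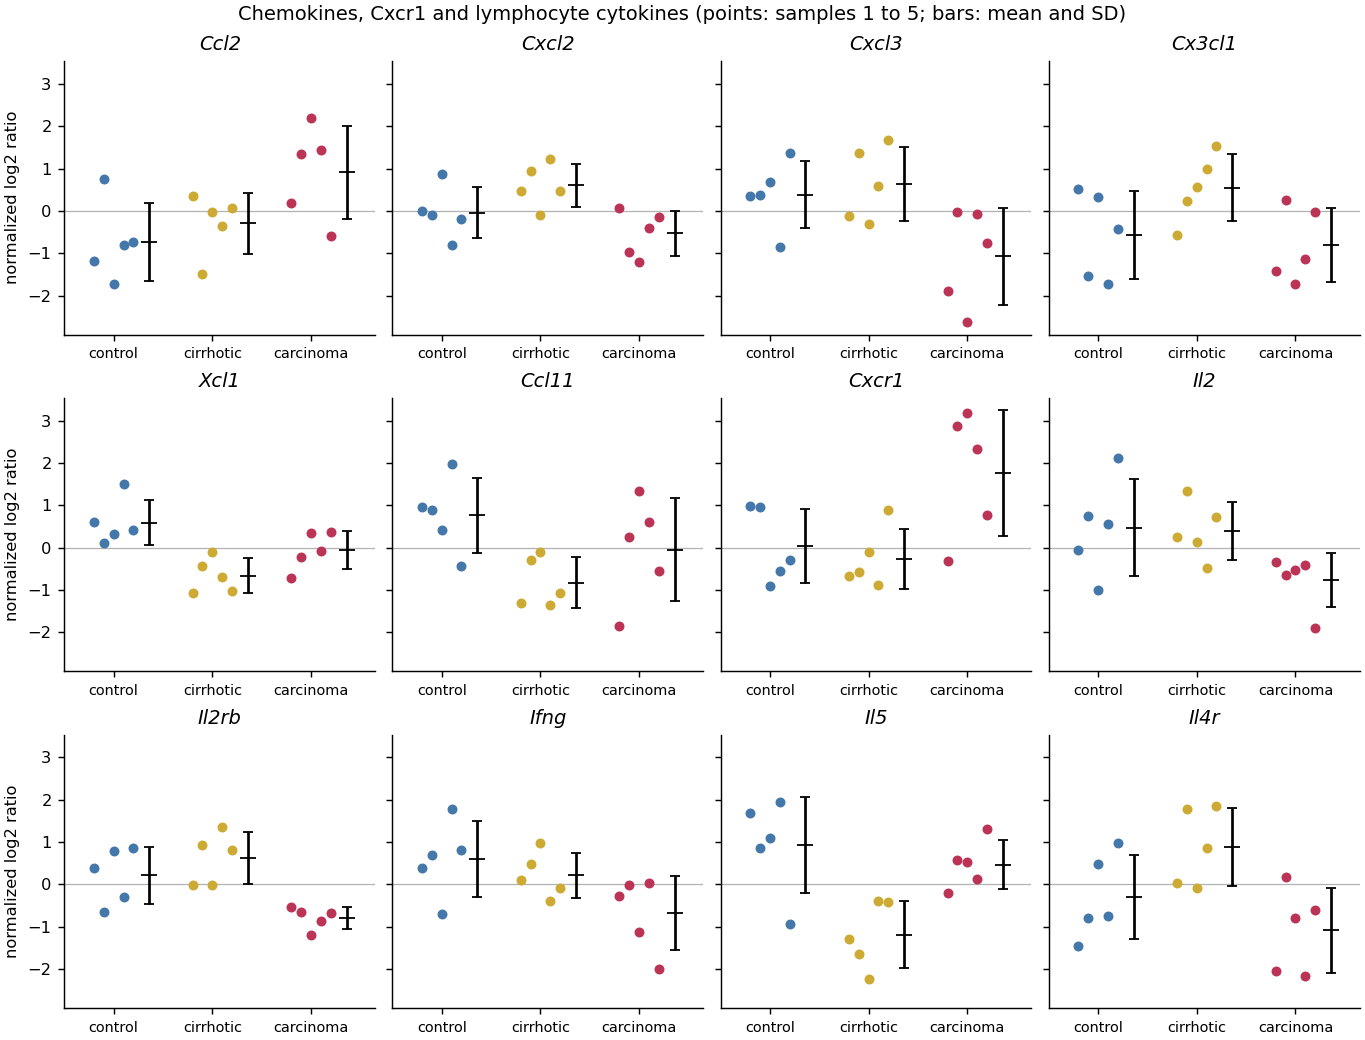
Log2 ratios of chemokine, chemokine receptor and lymphocyte cytokine genes in the 5 samples of each group (points, in order of replicate number), with the mean and SD beside them. Xcl1 separates control from cirrhotic liver, Il5 separates carcinoma from cirrhotic liver upwards and Il2rb does so downwards; for the other genes at least 1 sample overlaps.

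Csf3, the granulocyte colony-stimulating factor, was the 1 member separated upwards between cirrhotic and control liver (1.47% of members, against 0.665% of all probes). The samples gave log2 ratios of -0.28, -0.25, -0.89, -0.08 and -0.07 in control liver, 0.32, 0.46, 0.28, 0.89 and 0.48 in cirrhotic liver and -0.03, 0.83, -1.69, -0.25 and 0.28 in carcinoma, so every control was below 0 and every cirrhotic sample above 0. Cirrhotic minus control was 0.80 (95% interval -0.18 to 1.78, limma adjusted p = 0.565). After the numbering correction it was 0.39 and the separation was lost. Csf1r, the receptor of macrophage colony-stimulating factor, differed by 1.73 (95% interval -0.09 to 3.55, limma adjusted p = 0.669) between carcinoma and control liver, or 1.01 without control 5. Sample by sample, Csf1r stood at 1.38, -1.78, 1.77, -2.46 and -3.79 in control liver, -0.29, -2.60, -0.99, 0.77 and -0.35 in cirrhotic liver and 0.52, 0.89, 0.23, 0.14 and 1.99 in carcinoma. All 5 carcinoma values were above 0, while controls 1 and 3 were far above the other 3 controls. Macrophage and Kupffer cell markers were 4 of 14 listed, Csf1r among them, and their mean per sample ranged from -1.58 to 0.37 in control liver, from -1.02 to -0.21 in cirrhotic liver and from -0.14 to 0.50 in carcinoma. All 5 carcinomas thus lay above all 5 cirrhotic samples in that mean, which includes Csf1r and was not given the numbering correction. The median difference of the list between these groups was 0.89, or 0.46 with the numbering correction. Of the 4 markers, 0 passed an unadjusted p of 0.05 between carcinoma and either other group.

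Tnf, a central inflammatory cytokine, had log2 ratios of -0.64, -0.32, 0.10, -0.56 and 0.02 in control liver, 0.61, 0.72, -0.32, 0.97 and 1.56 in cirrhotic liver and -0.13, 0.73, -0.80, 0.31 and -1.14 in carcinoma. The cirrhotic samples other than sample 3 lay above every control. The cirrhotic mean differed from the control mean by 0.99 (95% interval -0.0039 to 1.98, limma adjusted p = 0.511), or 0.53 with the numbering correction. Tnfrsf1a, its main signalling receptor, had log2 ratios of -2.39, -1.5, 1.12, -0.63 and 0.08 in control liver, 0.79, 1.96, -0.23, -0.18 and 0.61 in cirrhotic liver and 1.02, -1.07, -1.31, -1.36 and 0.29 in carcinoma. Control 1 was the lowest sample, and the groups overlapped. Between cirrhotic and control liver Tnfrsf1a differed by 1.25 (95% interval -0.13 to 2.63, limma adjusted p = 0.535). With the value at the lower limit in control 1 set to missing, that difference was 0.82, and Tnfrsf1b, the second TNF receptor, differed by -0.11, or -0.18 with the numbering correction.

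Il6, the main inducer of acute phase proteins, had log2 ratios of -0.98, 0.44, -0.33, 0.11 and 1.48 in control liver, -0.01, 0.67, -0.30, -0.95 and 0.33 in cirrhotic liver and 0.02, -1.54, 0.57, -0.73 and -5.21 in carcinoma. Carcinoma 5 was far below the rest, and the groups otherwise overlapped. The carcinoma mean differed from the control mean by -1.52 (95% interval -3.28 to 0.24, limma adjusted p = 0.715), and -0.56 without carcinoma 5. Its receptor Il6r had log2 ratios of -0.29, -2.56, 0.08, -0.94 and 0.22 in control liver, 0.92, 0.65, -0.02, -0.50 and 0.17 in cirrhotic liver and 1.81, -0.36, -1.07, -1.25 and -0.03 in carcinoma, and cirrhotic differed from control liver by 0.94 (95% interval -0.37 to 2.25, limma adjusted p = 0.617). That difference was 0.60 with the numbering correction and 0.48 without control 2. For Il6st, the signalling chain shared by this family, they were -2.39, -0.77, -0.61, -0.0020 and 0.77 in control liver, -0.05, 0.51, 1.34, -0.51 and 1.26 in cirrhotic liver and 0.74, 0.52, -1.07, -1.90 and 0.02 in carcinoma. Control 1 was at the lower limit for Il6st and was its lowest sample. The difference of Il6st between cirrhotic and control liver was 1.11 (95% interval -0.19 to 2.41, limma adjusted p = 0.554), and with values at the lower limit set to missing it was 0.66, as it was without control 1, and with the numbering correction 0.62.

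Lif, an interleukin-6 relative, had log2 ratios of 0.79, -0.69, -1.73, -1.38 and 0.62 in control liver, 0.08, 1.15, -1.12, 0.28 and 1.5 in cirrhotic liver and -1.05, -0.02, -0.71, 0.65 and -1.13 in carcinoma. Those of its receptor Lifr were 1.05, 1.5, 1.49, -0.79 and 1.01 in control liver, -1.28, -0.03, -0.82, 0.98 and 0.01 in cirrhotic liver and -1.28, -1.27, 0.27, 1.76 and -0.06 in carcinoma. The groups overlapped for both. Lif differed by 0.85 (95% interval -0.43 to 2.14, limma adjusted p = 0.64) between cirrhotic and control liver, and Lifr by -1.08 (95% interval -2.35 to 0.20, limma adjusted p = 0.559). These lay on opposite sides of 0, and with the numbering correction they were 0.43 and -0.32. Without control 3 the difference of Lif was 0.54.

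Il10, an anti-inflammatory cytokine, had log2 ratios of -2.39, 0.61, -0.95, -0.12 and 1.04 in control liver, 0.17, 0.59, -0.45, -0.01 and 0.37 in cirrhotic liver and 0.72, -0.79, 0.47, 0.03 and -1.17 in carcinoma. Il18, a ligand of the interleukin-1 family, had -2.39, 0.81, -1.12, 0.37 and 1.99 in control liver, -0.74, 1.5, -0.09, -0.06 and 1.21 in cirrhotic liver and -2.02, 0.06, -0.36, 1.02 and -2.07 in carcinoma. Control 1 was at the lower limit for both, and the groups overlapped. Between carcinoma and cirrhotic liver the differences were -0.28 (95% interval -1.51 to 0.95, limma adjusted p = 0.864) for Il10 and -1.04 (95% interval -2.58 to 0.50, limma adjusted p = 0.535) for Il18. The numbering correction gave -0.0007 and -0.67, and without carcinoma 5 they were -0.02 and -0.69. For Il18 leaving out carcinoma 1 gave -0.69, and for Il10 leaving out single arrays gave between -0.49 (without carcinoma 1) and -0.02.

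Cxcl12, which retains leukocytes through Cxcr4, had log2 ratios of -0.59, 0.22, -3.19, -1.08 and 0.28 in control liver, 0.25, 0.28, -0.37, -0.30 and 0.18 in cirrhotic liver and -1.01, -0.02, 0.83, 0.97 and -0.77 in carcinoma. Those of Cxcr4 were 0.46, -1.24, 0.53, -1.82 and -0.73 in control liver, 0.20, -0.21, -0.01, 0.13 and 0.07 in cirrhotic liver and 0.21, 0.12, -1.83, -1.70 and -0.09 in carcinoma. Control 3 was at the lower limit for Cxcl12, and the groups overlapped for both genes. Between cirrhotic and control liver the differences were 0.88 (95% interval -0.45 to 2.22, limma adjusted p = 0.646) for Cxcl12 and 0.60 (95% interval -0.73 to 1.92, limma adjusted p = 0.747) for Cxcr4. Without control 3, the difference of Cxcl12 was 0.30. That of Cxcr4 was 0.29 without control 4 and 0.22 with the numbering correction.

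The other 33 members, Il1rl2 and the chemokine genes Ccl3, Ccl4, Ccl5, Ccl7, Ccl20, Ccl22, Cxcl6 and Cxcl10 among them, had differences between -1.39 and 1.53 over the 3 comparisons, with unadjusted p-values above 0.05 and no separation. The lowest belonged to Il9r and the highest to Il3ra, both between carcinoma and cirrhotic liver, where the numbering correction gave -0.56 for Il9r and 1.05 for Il3ra. By family, the 15 interleukin ligands had medians of -0.08, -0.49 and -0.31 for cirrhotic against control, carcinoma against control and carcinoma against cirrhotic liver, the first -0.36 with the numbering correction. The 12 interleukin receptors had 0.63, -0.39 and -0.64, of which the first became 0.18 with the numbering correction and the third -0.34. The 8 CC chemokines had 0.39, 0.17 and 0.21, and the 7 chemokine receptors 0.54, 0.14 and 0.16. After the numbering correction these were 0.16, 0.24 and 0.12 for the CC chemokines and 0.29, 0.13 and -0.16 for the chemokine receptors, 5 of which then lay below 0 between carcinoma and cirrhotic liver. All 7 ligands of the colony-stimulating factor, Lif, interferon and TNF groups lay below 0 between carcinoma and cirrhotic liver, against 50.7% of all probes. They ran from -0.92 (Tnf) to -0.52 (Ifnb1), and 0 of 7 passed an unadjusted p of 0.05. All but Ifnb1 are numbered below 2000, where 29.9% of all probes lay above 0 in this comparison. The numbering correction gave -0.59 for Tnf and -1.07 for Ifnb1, and all 7 remained below 0.

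Genes that act downstream were counted from lists. Of 24 listed interferon and TNF targets 19 were measured, with a median difference of 0.93 between cirrhotic and control liver (4 higher and 0 lower at an unadjusted p under 0.05) and -1.04 between carcinoma and cirrhotic liver (1 higher, 6 lower). Between carcinoma and control liver the median was 0.01 (1 higher, 1 lower). Over all probes the shares higher and lower were 4.02% and 5.62%, 6.95% and 6.28%, and 3.65% and 3.75% in these comparisons. The mean of the 19 targets per sample ranged from -0.58 to 0.04 in control liver and from 0.34 to 0.56 in cirrhotic liver. In carcinoma it ranged from -1.05 to 0.21. The cirrhotic samples thus lay above the rest, in means to which the numbering correction was not applied. With the numbering correction the medians were 0.43, -0.63 and 0.03 in the same order. Of 21 acute phase genes 15 were measured, with medians of -0.13, 0.66 and 0.36 for cirrhotic against control, carcinoma against control and carcinoma against cirrhotic liver, with 1, 1 and 3 genes higher and 0 lower. The corrected medians were 0.32, 0.80 and 0.016, so the first turned in sign. Signalling genes, 21 of 44 listed and measured by 23 probes, had medians of 0.16, 0.11 and -0.03, or -0.02, 0.19 and 0.10 with the numbering correction, so the first and the last turned in sign. Over all 3 lists 0 probes passed an adjusted p of 0.05.

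Cell type markers were measured beside the members. The mean log2 ratio of the 5 measured leukocyte markers of 8 listed ranged from -0.50 to 0.12 over control samples, from -0.79 to 0.26 over cirrhotic samples and from -0.34 to 0.69 over carcinomas, so the groups overlapped. For the 8 hepatocyte markers of 10 listed the ranges were -1.54 to 0.29, -1.93 to 0.95 and -0.18 to 0.73. The 3 endothelial markers of 7 listed ranged from -0.70 to 0.76, from -0.08 to 0.54 and from -0.98 to 0.03. Of 6 neutrophil and mast cell markers of 10 listed, 2 were lower in carcinoma than in cirrhotic liver at an unadjusted p under 0.05 (against 6.28% of all probes). The list ranged from -0.04 to 0.23, from -0.20 to 0.45 and from -0.72 to 0.05. Its median difference between carcinoma and cirrhotic liver was -0.28, or 0.02 with the numbering correction. Of 7 measured stellate cell and myofibroblast markers, 3 were lower and 0 higher in cirrhotic than in control liver at that threshold. Over all probes these shares were 5.62% and 4.02%. The median difference of that list was 0.0025, or -0.24 with the numbering correction. Ratios to a probe's own median do not show which markers are absent, and the part of cell content in the member differences was not tested.

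The differences of members followed the probe numbering of the array. Between cirrhotic and control liver, 30 of the 39 members numbered below 2000 lay above 0, with a median of 0.47, and 23 of the 29 from 2000 on lay below 0, with a median of -0.57. Over all probes in the same stretches 76.6% and 24.7% lay above 0, with medians of 0.46 and -0.46. The reverse held between carcinoma and cirrhotic liver, where 31 of 39 members below 2000 lay below 0 (median -0.83, against -0.45 over all 1884 probes there) and 16 of 29 from 2000 on lay above 0 (median 0.16, against 0.36 over 1873 probes). Between carcinoma and control liver the medians of all probes were 0.06 and -0.07. Ligands make up 24 of the 39 members below 2000 and 13 of the 29 from 2000 on, and receptors 15 and 13. Of the 30 member differences that met the criterion of an unadjusted p under 0.05 or complete separation, 9 shrank by more than 1.5 times with the numbering correction.

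**Figure D5:**
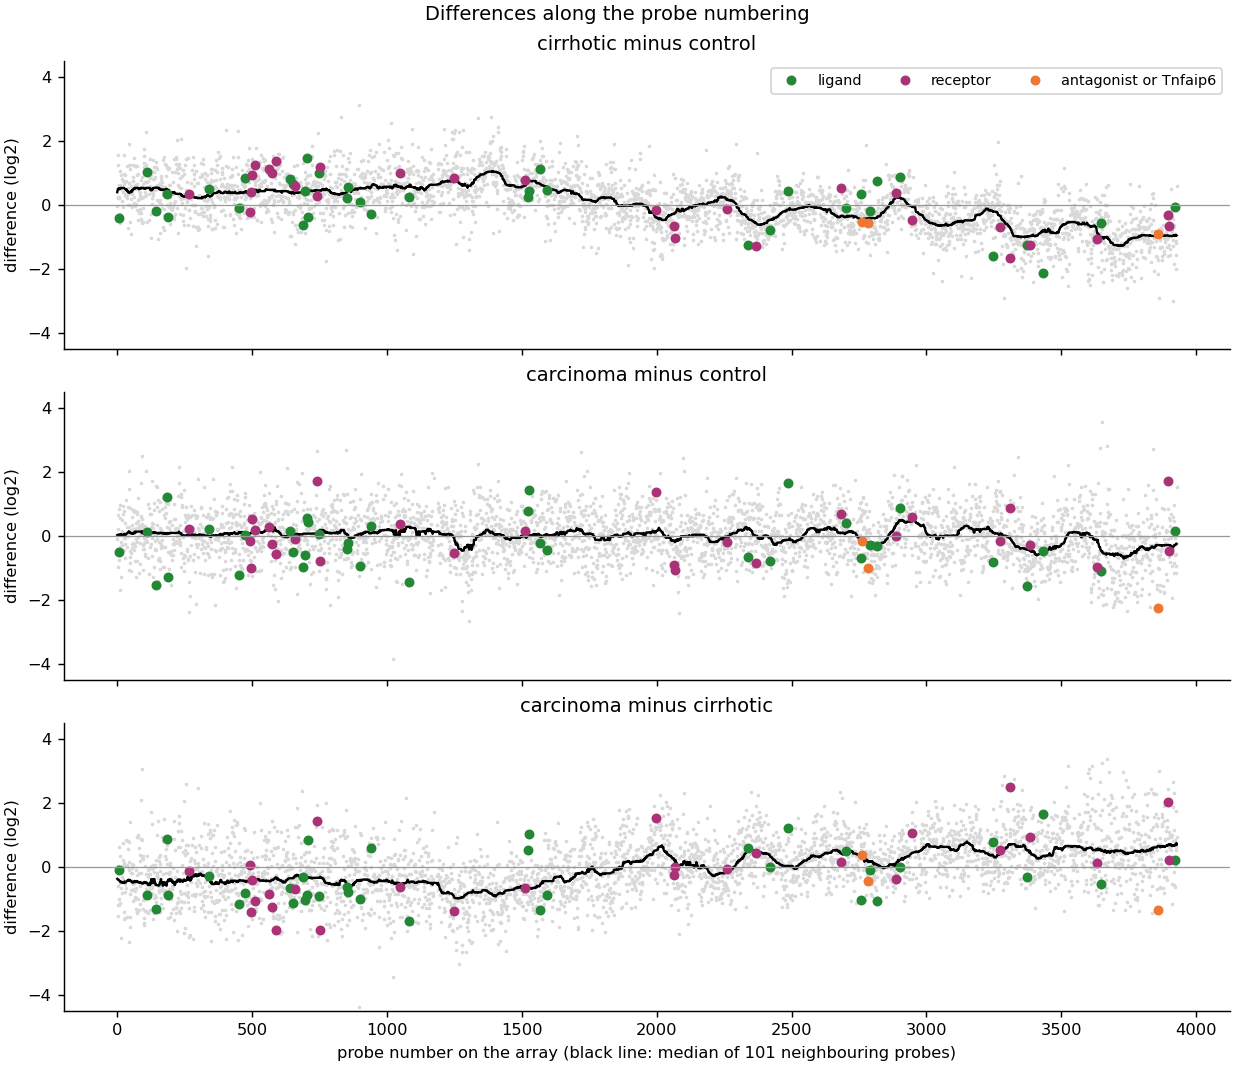
Difference of group means (log2) against probe number for all 3757 probes (grey), the members by role (coloured) and the running median of neighbouring probes (black). Between cirrhotic and control liver the running median declines along the numbering and the members follow it; between carcinoma and control liver it stays nearer 0.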

How the data were processed

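The deposited table holds, for 15 arrays and 3757 probes, ratios that the authors made; every probe has a median of 1 over the arrays (within 1e-06). How the array was made and read, and what came before the ratio, is not given in the sources used here, and all columns of values were used. Ratios were quantile normalized, because the arrays' trimmed mean ratios differed by up to 1.49 times, and then put on the log2 scale. All groups were fitted together with limma 3.58.1 in R 4.3.3 (lmFit and eBayes with trend, 12 residual degrees of freedom), and p-values were adjusted over all probes by the Benjamini-Hochberg method. The median half-width of the 95% intervals was 1.27 on the log2 scale, and precision is limited by how many arrays there are. The fit was tested on simulated data, and the settings and outcome of that test are not given here.

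Members given in full are those with an unadjusted p under 0.05 or complete separation in at least 1 comparison, and a list of 21 names of central genes. The members and lists were chosen with earlier results of these data known. Gene neighbours, within 1 Mb, and sequences come from RefSeq, where all 68 members matched. Replicate numbers were not taken to pair samples, because the labels do not say that they do. Same-numbered samples correlated between -0.34 and 0.387 in their deviations from the group means, taken without the numbering correction. For carcinoma and cirrhotic samples, which share a diet, the range was -0.24 to 0.387. These correlations cannot show whether samples are paired. Alternatives were the deposited scale, median scaling, the numbering correction, a pseudocount of 0.1, values at the lower limit as missing, no trend, 2 groups at a time, array weights, a replicate block and leaving out arrays.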

Additional observations from a re-analysis of the deposited data

Results flagged for a closer look

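In 69 sets of 5 values (the 3 groups of each of the 21 members that met the criterion, and the sample medians of ligands and receptors), 6 held a sample whose distance to its nearest neighbour exceeded Dixon's 95% critical value of 0.71 of the range. Chance marks about 1 in 20, or 3.45 here. Control 5 was the lowest of its group for the interleukin-1 decoy receptor Il1r2 at -1.86 (next -0.03), for the partner chain Il1rap at -0.74 (next 1.07) and for the shared receptor chain Csf2rb at -0.80 (next 0.65). Control 4 was lowest for Il1r1 at -2.08 (next -0.50), and control 3 for Csf3 at -0.89 (next -0.28). Carcinoma 5 was lowest for Il2 at -1.89 (next -0.65).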

How the results depend on the processing

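No member passed an adjusted p of 0.05 in limma under the alternatives that kept all arrays. At an unadjusted p under 0.05 the members numbered 3 between cirrhotic and control liver with the numbering correction (4.41%, against 4.02% of all probes) and 14 with array weights. For settings other than the numbering correction, the shares over all probes are not given here. Those member counts can therefore not be set against the whole array. Complete separation was then seen for 0, 2 and 0 members with the numbering correction (cirrhotic against control, carcinoma against control, carcinoma against cirrhotic), and for carcinoma against control for 2 with values at the lower limit set to missing and 4 without both control 1 and cirrhotic sample 1. The receptor median between cirrhotic and control liver was -0.043 with values at the lower limit set to missing. Leaving out 1 array at a time gave 5 (without control 2, cirrhotic sample 2 or 5) to 12 members at an unadjusted p under 0.05 for cirrhotic minus control, 6 (without control 5) to 10 for carcinoma minus control and 7 (without carcinoma 3) to 15 for carcinoma minus cirrhotic. Separation ran from 2 to 6 (without control 5), from 1 to 4 (without control 1 or 3) and from 2 to 6 (without cirrhotic sample 4), and probes past an adjusted p of 0.05 from 0 to 2 (without cirrhotic sample 5) for carcinoma minus cirrhotic. On the values as deposited, the sign turned in cirrhotic minus control for Il2 (0.026), and in carcinoma minus control for Il18 (0.35), Tnf (-0.074) and Lif (-0.13), and in carcinoma minus cirrhotic for Il1a (0.94). With arrays scaled to the same median, the sign turned in cirrhotic minus control for Il2 (0.028) and Il6 (0.0001), and in carcinoma minus control for Il18 (0.37), Tnf (-0.054) and Lif (-0.11), and in carcinoma minus cirrhotic for Il1a (0.96). With the numbering correction, the sign turned in cirrhotic minus control for Il7 (-0.068), Cxcl3 (-0.26), Cxcr1 (0.51), Il1b (-0.36) and Csf1r (-0.20), and in carcinoma minus control for Csf2rb (0.14), Il5 (0.025), Tnf (-0.055) and Lif (-0.017), and in carcinoma minus cirrhotic for Il1rap (-0.077), Il1a (0.28) and Lifr (-0.43). With a pseudocount of 0.1, the sign turned in carcinoma minus control for Lif (-0.0022), and in carcinoma minus cirrhotic for Cxcl12 (0.0093). With values at the lower limit set to missing, the sign turned in cirrhotic minus control for Il1a (0.14), Il10 (-0.012) and Il18 (-0.15), and in carcinoma minus control for Il6st (-0.18), Il10 (-0.29) and Tnfrsf1a (-0.25). With array weights, the sign turned in cirrhotic minus control for Il2 (0.077), and in carcinoma minus control for Lif (-0.0027). Without both control 1 and cirrhotic sample 1, the sign turned in cirrhotic minus control for Il7 (-0.068), Cxcr1 (0.032), Il1b (-0.023) and Il10 (-0.021), and in carcinoma minus control for Cx3cl1 (0.028), Il6st (-0.15), Il10 (-0.27), Tnf (-0.013), Tnfrsf1a (-0.24) and Cxcr4 (0.15), and in carcinoma minus cirrhotic for Cxcl12 (0.054) and Lifr (-0.14). Leaving out 1 array turned the sign in cirrhotic minus control for Il2 (-0.45 to 0.33), Cxcl3 (-0.058 to 0.50), Il1a (-0.67 to 0.14), Il1b (-0.068 to 0.37), Il6 (-0.47 to 0.14), Il10 (-0.016 to 0.83), Il18 (-0.15 to 0.95) and Csf1r (-0.43 to 0.94). It also turned in carcinoma minus control for Csf3 (-0.11 to 0.52), Cx3cl1 (-0.54 to 0.030), Il1a (-0.85 to 0.14), Il6st (-0.16 to 0.66), Il10 (-0.29 to 0.56), Tnf (-0.17 to 0.30), Tnfrsf1a (-0.25 to 0.61), Cxcr4 (-0.43 to 0.19) and Lif (-0.29 to 0.32). It also turned in carcinoma minus cirrhotic for Il1a (-0.61 to 0.54), Cxcl12 (-0.25 to 0.23) and Lifr (-0.36 to 0.41). With the replicate number as a block, which the labels do not show to pair samples, the members at an unadjusted p under 0.05 were 9, 9 and 10 in the 3 comparisons and 0 passed an adjusted p of 0.05, and none of the 105 member differences given in full turned its sign. A sample correlated best with its own number in 1 of 5 in each comparison. The cause was not tested for any of these moves. A fit without 1 array also holds fewer values in a group, and complete separation is then easier to meet. Ratios without absolute signals give no measure of depth or of signal over background.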

Other observations

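Ccl4 and Ccl5, chemokines that attract T cells and monocytes and whose genes neighbour each other on chromosome 10, met no criterion between groups and were chosen here after their values were seen. In controls 1 to 5 the log2 ratios of Ccl4 were 3.27, -2.42, 2.98, -2.47 and -2.05, and those of Ccl5 were 2.47, -1.5, 2.13, -1.88 and -2.05. Controls 1 and 3 thus stood high for both and the other 3 low. Csf1r, a receptor of macrophages, had the same split, with 1.38 and 1.77 in controls 1 and 3 and values from -3.79 to -1.78 in the rest. The split was not particular to these genes. Tnfrsf8, Cxcl6, Cxcr4 and Cx3cl1 also had their highest control values in controls 1 and 3. The receptor median was 0.20 and 0.45 there, and -0.58, -0.34 and 0.02 in controls 2, 4 and 5. The ligand median went the other way, with -0.10 and -0.33 there and 0.22, -0.0020 and 0.34 in controls 2, 4 and 5. The probes of Ccl4 and Ccl5 carry the adjoining numbers 1525 and 1526, and their part in the likeness was not tested.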
